A study of Rattus norvegicus with 8 samples.

Results

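Glycolysis and the response to low oxygen were followed through 35 named genes: the enzymes from hexokinase to lactate dehydrogenase, the kinases that steer carbon into or away from that route, the subunits of the hypoxia-inducible factor (HIF), the proteins that destroy it, and a group of its targets. Genes were found on the array by their RefSeq accession. A matched probe existed for 32 of the 35; Pfkp, Eno2 and Egln1 had none and were not analysed here. Probes had to stand well above background in at least 3 arrays out of the 7 from liver, or in the culture array. This left 31 of the genes, read by 39 probes, among 21309 genes and 24821 probes kept in all. The remaining gene, Pdk4, was not well above background on any of the 8 arrays.

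The cells were ATSC, mesenchymal stem cells from male rats of the Sprague-Dawley strain. Fat from under the skin was digested with collagenase, and the cells were kept in culture medium with serum. Arrays fall into 3 groups: cells on a liver after ischemia-reperfusion injury (IRI, a stop and return of blood flow; 3 arrays), cells on a liver without that injury (non-IRI; 4 arrays), and cells in culture (in vitro; 1 array). RNA from each sample was hybridised to 1 single-colour Agilent whole-genome rat array. The age of the animals, the time on the liver, the way cells were taken back from it and whether replicates are separate animals are not given in the labels used here, so p-values measure the spread between these samples.

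Glycolysis turns glucose into pyruvate in the cytosol, and lactate dehydrogenase turns pyruvate into lactate so that the pathway can run without oxygen. HIF is a pair of proteins whose alpha subunit is hydroxylated by the Egln enzymes when oxygen is present, bound by the Vhl protein and degraded. When oxygen is short the alpha subunit stays, and HIF raises transcription of many glycolytic enzymes, of Pdk1, Bnip3, Ndrg1, Adm, Ankrd37 and Car9, and of Egln3 itself. The alpha subunit is set mainly by protein stability, so its mRNA level is not a measure of its activity.

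Levels below are log2 values of the processed signal relative to the 75th percentile of the same array, and a difference is the mean of the group named first minus that of the other, on that scale. A gene is said to rise or fall where limma gave an adjusted p under 0.05 over all genes tested. Levels are not compared between probes. On the 8 arrays, 53.5% to 59.7% of spots were well above background. The 75th percentile lay between 156 (IRI 1) and 291 (IRI 2) intensity units. Per the file headers, the IRI arrays and the in vitro array were scanned in 1 session and the non-IRI arrays in another, so scan and injury cannot be told apart between the liver groups. All 15 mesenchymal stromal markers measured (such as Thy1, Pdgfrb and Col1a1) were well above background on every array, with a mean level of 4.96 to 5.01 in IRI, 4.85 to 5.14 in non-IRI and 5.18 in vitro. Their single levels were less even: on liver against culture 4 were higher and 11 lower. Of these, 1 rose and 3 fell, where 16% of all genes rose and 18.1% fell. Markers of other cells were read on the liver arrays too. The 16 macrophage and Kupffer cell markers had a mean level of 3.90 to 4.27 in IRI and 2.92 to 4.04 in non-IRI, against -5.04 in vitro, where 3 of the 16 were well above background. The 17 hepatocyte markers had a mean level of -0.17 to 0.42 in IRI, -3.90 to -2.18 in non-IRI and -4.12 in vitro. In such bulk RNA, fewer cells of a type and less RNA per cell cannot be told apart.

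Promoter windows from RefSeq (build GRCr8, 250 bases before to 50 after a start site) matched 32 of the 35 genes, with 36 windows; Bnip3l, Ndrg1 and Pgk1 did not match. They were searched on both strands for ACGTG and GCGTG, the core letters of the element that HIF binds. ACGTG was found in 20 of the 36 windows, or 55.6%, against 19.3% of all 33469 windows of the same length. GCGTG was found in 15, or 41.7%, against 29.7% of all windows. At least 1 of the motifs was in 24, or 66.7%, against 41.6%. Sites may overlap, and the palindrome CACGTG counts once on each strand. The windows of 4 genes that rose on liver, of Ldhb, which fell, and of its paralog Ldha, which did not pass the test, are printed 5′ to 3′ on the gene's strand, with every ACGTG or GCGTG of either strand in capitals.
Hk3: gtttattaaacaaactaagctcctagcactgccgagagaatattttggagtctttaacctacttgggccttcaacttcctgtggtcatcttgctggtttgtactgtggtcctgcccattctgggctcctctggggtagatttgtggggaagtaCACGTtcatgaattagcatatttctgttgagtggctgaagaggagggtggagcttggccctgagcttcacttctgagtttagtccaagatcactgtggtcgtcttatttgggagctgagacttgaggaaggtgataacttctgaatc
Egln3: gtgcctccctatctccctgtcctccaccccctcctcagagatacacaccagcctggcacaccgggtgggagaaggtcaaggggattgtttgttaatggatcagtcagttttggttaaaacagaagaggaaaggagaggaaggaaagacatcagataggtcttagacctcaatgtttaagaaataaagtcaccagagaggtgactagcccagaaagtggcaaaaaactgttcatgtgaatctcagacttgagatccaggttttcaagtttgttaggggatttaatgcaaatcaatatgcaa
Ankrd37: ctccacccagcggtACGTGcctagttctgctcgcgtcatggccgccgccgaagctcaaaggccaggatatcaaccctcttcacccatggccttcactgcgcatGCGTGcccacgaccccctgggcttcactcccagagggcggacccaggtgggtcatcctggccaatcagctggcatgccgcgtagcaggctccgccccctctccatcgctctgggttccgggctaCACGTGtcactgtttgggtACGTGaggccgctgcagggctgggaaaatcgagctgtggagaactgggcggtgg
Pfkfb3: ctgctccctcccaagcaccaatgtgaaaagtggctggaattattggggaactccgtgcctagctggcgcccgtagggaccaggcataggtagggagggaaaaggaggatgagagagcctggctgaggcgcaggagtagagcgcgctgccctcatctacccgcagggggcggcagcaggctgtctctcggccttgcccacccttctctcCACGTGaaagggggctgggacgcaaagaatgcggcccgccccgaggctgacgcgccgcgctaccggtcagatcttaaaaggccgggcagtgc
Ldhb: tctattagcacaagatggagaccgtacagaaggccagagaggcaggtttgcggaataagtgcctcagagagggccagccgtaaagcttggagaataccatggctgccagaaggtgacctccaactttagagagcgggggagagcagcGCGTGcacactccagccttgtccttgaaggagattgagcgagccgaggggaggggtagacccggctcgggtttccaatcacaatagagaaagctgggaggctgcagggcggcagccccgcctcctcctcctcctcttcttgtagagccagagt
Ldha: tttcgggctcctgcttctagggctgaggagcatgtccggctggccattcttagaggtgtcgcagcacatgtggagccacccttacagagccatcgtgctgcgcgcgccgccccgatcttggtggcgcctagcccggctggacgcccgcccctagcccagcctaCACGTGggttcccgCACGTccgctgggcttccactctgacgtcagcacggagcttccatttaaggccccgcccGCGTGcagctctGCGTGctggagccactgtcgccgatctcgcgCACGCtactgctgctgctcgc
These windows lie at chr17:9604781-9605080 (plus strand) for Hk3, chr6:77410966-77411265 (minus) for Egln3, chr16:53001257-53001556 (plus) for Ankrd37, chr17:71944683-71944982 (plus) for Pfkfb3, chr4:177177359-177177658 (minus) for Ldhb and chr1:106507842-106508141 (plus) for Ldha. Ankrd37 held 4 ACGTG and 1 GCGTG, the nearest of them starting 4 bases before the start site. Pfkfb3 held 2 overlapping ACGTG, which start 42 and 41 bases before its start site. Ldha held 3 of each motif, Hk3 1 ACGTG, Ldhb 1 GCGTG, and Egln3 neither. A match is a description of letters and not a shown binding site, and a window without one says nothing of sites elsewhere.

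Compared with culture, the RNA of the liver samples had higher levels of 5 of the 31 genes and lower levels of 2. That RNA also held the markers of other cells given above. Hk3, Egln3, Ankrd37, Ndrg1 and Pfkfb3 rose, and Hk1 and Ldhb fell, in the mean of both liver groups. The Hk3 probe was not well above background in vitro and was kept only through its liver arrays, so its rise is a bound. Over all genes tested, 34.2% were called in this comparison (16% rose and 18.1% fell). A further 24 members did not pass. The members' median difference was 0.23, and the median over all genes was -0.25. With the replicate number as a block those medians were -0.04 and -0.17. With quantile normalization the split was 6 that rose and 0 that fell, where 30.7% of all genes were called. Higher means were found for 17 of the 31 (39.3% of all genes), and 14 had an unadjusted p under 0.05 (46.1% of all genes). All 7 liver arrays lay above culture for 11 members (24.4% of all genes) and below it for 8 (40.7% of all genes). Culture is a single array, and the fit takes its spread from the liver arrays.

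**Figure D1:**
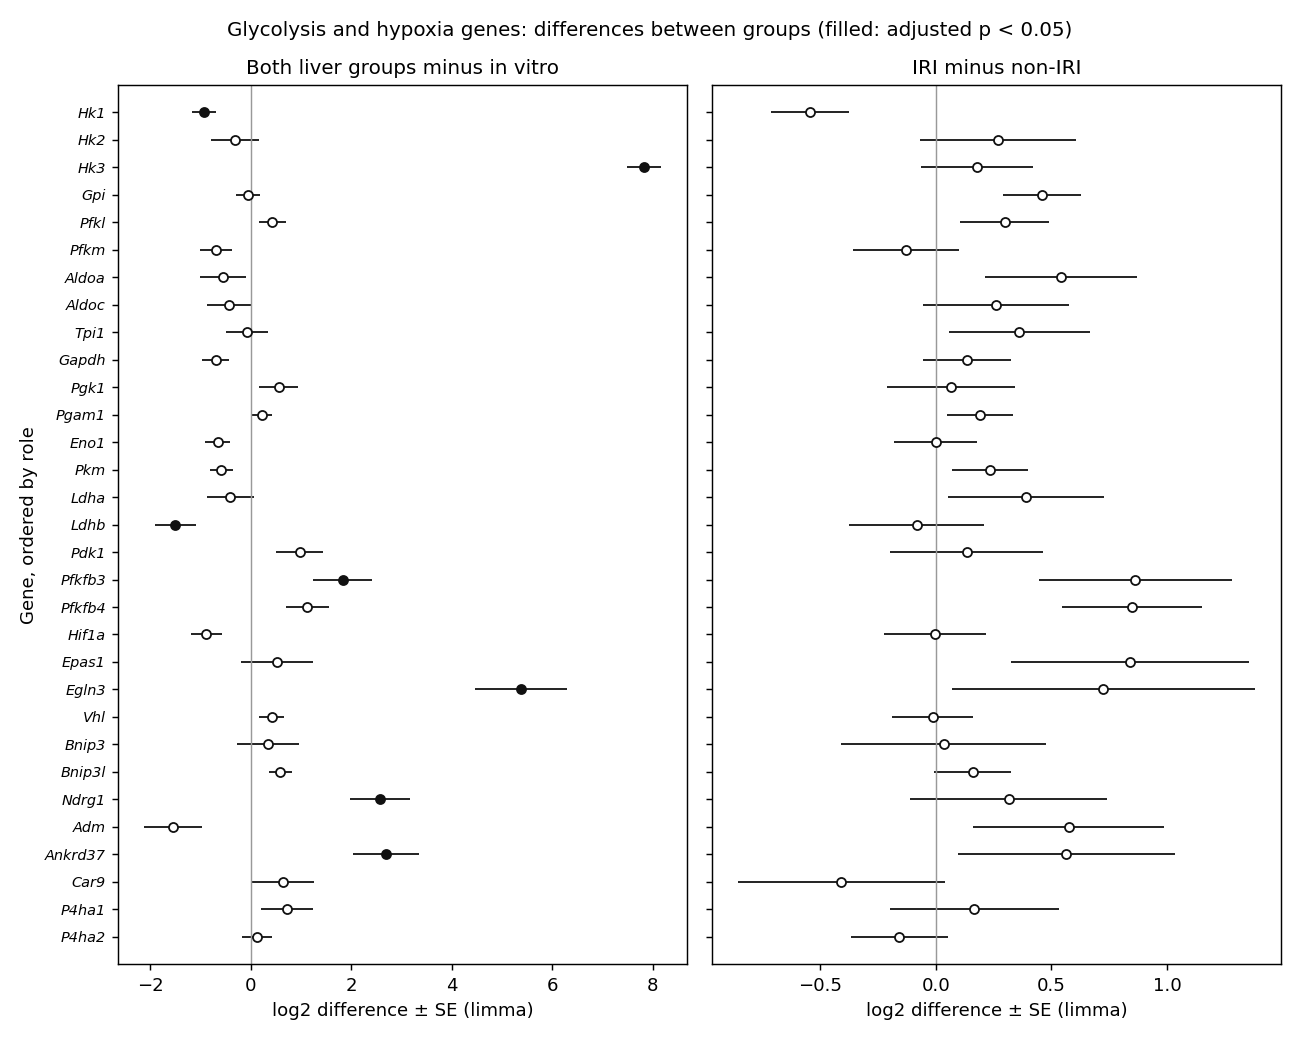
Differences of the 31 genes on the log2 scale with their standard errors from limma, for both liver groups minus in vitro (left) and IRI minus non-IRI (right); filled points passed an adjusted p of 0.05. On the left 5 genes rose, led by Hk3 and Egln3, and 2 fell; the Hk3 point is set against an in vitro signal not well above background and has only a lower bound; on the right no point is filled, and the axis is narrower.

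Among the hexokinases, which phosphorylate glucose on entry, 1 rose, 1 fell and 1 did not pass. Hk3, the isoform known mainly from white blood cells, had 3.75, 3.07 and 3.42 in IRI and 3.39, 2.77, 3.51 and 3.27 in non-IRI, against -4.50 in vitro. All 7 liver arrays lay far above culture, where the probe was not well above background, and the liver groups overlapped. The fold is therefore a bound: at least 234-fold in IRI and at least 206-fold in non-IRI over the lowest measurable signal in vitro. Limma's test of liver against culture, on the signals as read, gave an adjusted p of 3.3e-06. That test sets liver against a reading under the lowest measurable signal, and the probe was kept only through its liver arrays. The p is therefore no support beyond the bound. Hk3 drops out of the test where probes must be well above background on all 8 arrays. In the same comparison 15 of the 16 macrophage markers, 4 of 5 neutrophil markers and 6 of 6 mesothelial markers rose. So did 11 of 17 hepatocyte, 4 of 9 endothelial and 2 of 5 erythroid markers, where 16% of all genes rose. In vitro, 3 of the macrophage, 1 of the neutrophil and 4 of the mesothelial markers were well above background. The hepatocyte, endothelial and erythroid lists had 9, 2 and 2. The other probes were kept only through liver arrays, so no size is given and these counts are no test. The part of these markers in the Hk3 difference was not tested.

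Hk1, the isoform found in most tissues and bound to mitochondria, went the other way. It had 3.03, 3.00 and 2.97 in IRI and 3.42, 3.68, 3.29 and 3.79 in non-IRI, against 4.19 in vitro. Every liver array lay below culture, and the IRI arrays lay below all non-IRI arrays. The liver difference was -0.92 ± 0.24 (adjusted p 0.0212), and a second Hk1 probe gave -1.54 (adjusted p 0.0136 over all kept probes). The fall did not pass with quantile normalization (-0.55, adjusted p 0.120), with the replicate number as a block (-0.97, adjusted p 0.0605), under normexp background correction (-1.02, adjusted p 0.402) or with no filter on dim probes (adjusted p 0.0538). Hk2, the insulin- and hypoxia-responsive isoform of muscle and fat, had -2.66, -1.60 and -1.54 in IRI and -2.68, -2.00, -1.75 and -2.37 in non-IRI, against -1.76 in vitro. The groups overlapped, and the liver difference of -0.31 ± 0.47 did not pass (adjusted p 0.642).

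HIF targets outside the glycolytic route held 3 of the rises. Egln3, the oxygen-dependent prolyl hydroxylase that HIF induces and that marks HIF for destruction, had 2.55, 4.63 and 4.04 in IRI and 2.12, 3.88, 2.12 and 3.94 in non-IRI, against -2.00 in vitro. Every liver array lay at least 4 log2 units above culture, but the liver arrays themselves spread over more than 2 units. The liver difference was 5.37 ± 0.92 (adjusted p 0.00387). It passed in each of the 19 alternatives run, at 4.08 to 5.67 (adjusted p at most 0.0161), while in non-IRI alone against culture it missed the threshold under normexp background correction (3.49, adjusted p 0.0510). Its partner Vhl, the part of the ubiquitin ligase that binds hydroxylated HIF, differed by 0.42 ± 0.25 and did not pass (adjusted p 0.214). Vhl did pass with quantile normalization (0.80, adjusted p 0.0315).

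Ankrd37, an ankyrin repeat protein and HIF target, had 4.16, 5.28 and 5.17 in IRI and 3.13, 4.95, 4.65 and 4.49 in non-IRI, against 1.89 in vitro. Ndrg1, a stress protein induced by hypoxia, had 3.41, 4.79 and 4.54 in IRI and 3.33, 4.49, 3.48 and 4.43 in non-IRI, against 1.52 in vitro. For both genes all 7 liver arrays were above culture, and IRI 1 and non-IRI 1 were the lowest array of their group. The liver differences were 2.69 ± 0.66 (adjusted p 0.0170) for Ankrd37 and 2.57 ± 0.60 (adjusted p 0.0140) for Ndrg1. A second, dimmer Ndrg1 probe differed by 2.40 ± 0.87 and did not pass (adjusted p 0.0662). Under normexp background correction Ankrd37 (2.52, adjusted p 0.101) and Ndrg1 (2.40, adjusted p 0.0792) kept their size and no longer passed.

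Adm and Car9, also HIF targets, did not pass. Adm, a vasodilator peptide, had 6.46, 7.23 and 7.10 in IRI and 5.28, 7.04, 6.53 and 6.56 in non-IRI, against 8.18 in vitro. Every liver array was below culture, in the opposite direction to Ankrd37. The liver difference of -1.54 ± 0.58 did not pass (adjusted p 0.0736), while it did with the replicate number as a block (-2.31, adjusted p 0.0161) and without non-IRI 1 (-1.36, adjusted p 0.0301) or non-IRI 2 (-1.65, adjusted p 0.0488). Car9, a membrane carbonic anhydrase that exports acid, had 0.12, 1.97 and 1.33 in IRI and 1.23, 1.49, 1.23 and 2.24 in non-IRI, against 0.71 in vitro. IRI 1 lay below culture and the other 6 liver arrays above it. The difference of 0.64 ± 0.63 did not pass (adjusted p 0.458).

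The enzymes that set fructose 2,6-bisphosphate, the activator of phosphofructokinase, were dim; 1 rose on liver and 1 did not pass. Pfkfb3, which makes that sugar, had -2.42, -1.82 and -1.89 in IRI and -2.96, -3.95, -2.05 and -2.67 in non-IRI, against -4.30 in vitro. All liver arrays were above culture, non-IRI 2 by the least. The culture reading lay close to the lowest measurable signal of its array, -4.45, so the size of the difference rests on a value near that floor. The difference of 1.83 ± 0.58 passed (adjusted p 0.0441), but not without IRI 2 (adjusted p 0.0733), IRI 3 (0.0759), non-IRI 1 (0.0654) or non-IRI 4 (0.0694), nor with the replicate block (1.62, adjusted p 0.124), quantile normalization (adjusted p 0.0737) or no filter on dim probes (adjusted p 0.0742). It was 0.56 under normexp correction (adjusted p 0.904) and 0.36 once bright local background was set to the array median (adjusted p 0.389). Pfkfb4, its paralog, had -2.12, -1.51 and -1.45 in IRI and -2.33, -3.05, -1.97 and -2.83 in non-IRI, against -3.25 in vitro. All liver arrays again lay above culture, and the difference of 1.13 ± 0.42 did not pass (adjusted p 0.0732); without non-IRI 2 it was 1.22 and passed (adjusted p 0.0458), as it did with array weights (1.29, adjusted p 0.0101).

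Pdk1 phosphorylates pyruvate dehydrogenase in the mitochondrion and so slows the conversion of pyruvate to acetyl-CoA. It had -0.27, 0.99 and 0.87 in IRI and 0.07, 0.75, 0.22 and 0.54 in non-IRI, against -0.51 in vitro. All liver arrays lay above culture, IRI 1 nearest to it. The difference of 0.98 ± 0.47 did not pass (adjusted p 0.140), and without IRI 1 it was 1.18 and passed (adjusted p 0.0233). Pdk4, the paralog induced by fasting, was read at -6.22 to -6.84 in IRI, -6.61 to -7.10 in non-IRI and -6.58 in vitro, below the level at which these probes measure.

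The glycolytic enzymes between hexokinase and pyruvate showed no call in the main fit. None of the 6 upper enzymes (Gpi, Pfkl, Pfkm, Aldoa, Aldoc, Tpi1) and none of the 5 lower ones (Gapdh, Pgk1, Pgam1, Eno1, Pkm) rose or fell on liver. At an unadjusted p under 0.05 there were 0 and 3, against 46.1% of all genes. In the upper group the differences ran from -0.68 ± 0.32 for Pfkm, the muscle subunit of phosphofructokinase, to 0.43 ± 0.27 for Pfkl, the liver subunit. In the lower group Gapdh, which makes NADH, differed by -0.70 ± 0.27 (adjusted p 0.0784). Eno1, which makes phosphoenolpyruvate, differed by -0.65 ± 0.25 (adjusted p 0.0773; without IRI 2, -0.73 and 0.0479), and Pkm, pyruvate kinase, by -0.58 ± 0.23 (adjusted p 0.0846). For these 3 genes every liver array was below culture, as it was for 40.7% of all genes. With a trended robust prior Gapdh, Eno1 and Pkm fell (adjusted p 0.0413, 0.0388 and 0.0409), where 36.3% of all genes were called. With array weights they fell too (0.0311, 0.0407 and 0.0305), as did Pfkm (-0.78, adjusted p 0.0389), where 49.8% of all genes were called. Gapdh had 6.94 to 7.52 in IRI and 6.96 to 7.32 in non-IRI, against 7.89 in vitro. Pgk1 (0.56 ± 0.39) and Pgam1 (0.23 ± 0.20) were on the other side of 0, and neither passed.

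The subunits of lactate dehydrogenase differed in their calls. Ldhb, the heart-type subunit, had 2.59, 2.40 and 3.08 in IRI and 3.17, 2.81, 2.09 and 3.01 in non-IRI, against 4.22 in vitro. All 7 liver arrays lay below culture and the liver groups overlapped. The difference of -1.49 ± 0.41 passed (adjusted p 0.0264), but not with the replicate number as a block (-1.34, adjusted p 0.131), quantile normalization (-1.13, adjusted p 0.0846) or normexp correction (-1.59, adjusted p 0.199). Ldha, the muscle-type subunit and a HIF target, had 3.22, 4.59 and 4.35 in IRI and 3.31, 3.89, 3.86 and 3.58 in non-IRI, against 4.26 in vitro. The culture array lay within the range of the IRI arrays, and the difference of -0.41 ± 0.47 did not pass (adjusted p 0.532). Whether the Ldha and Ldhb differences are unequal was not tested.

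**Figure D2:**
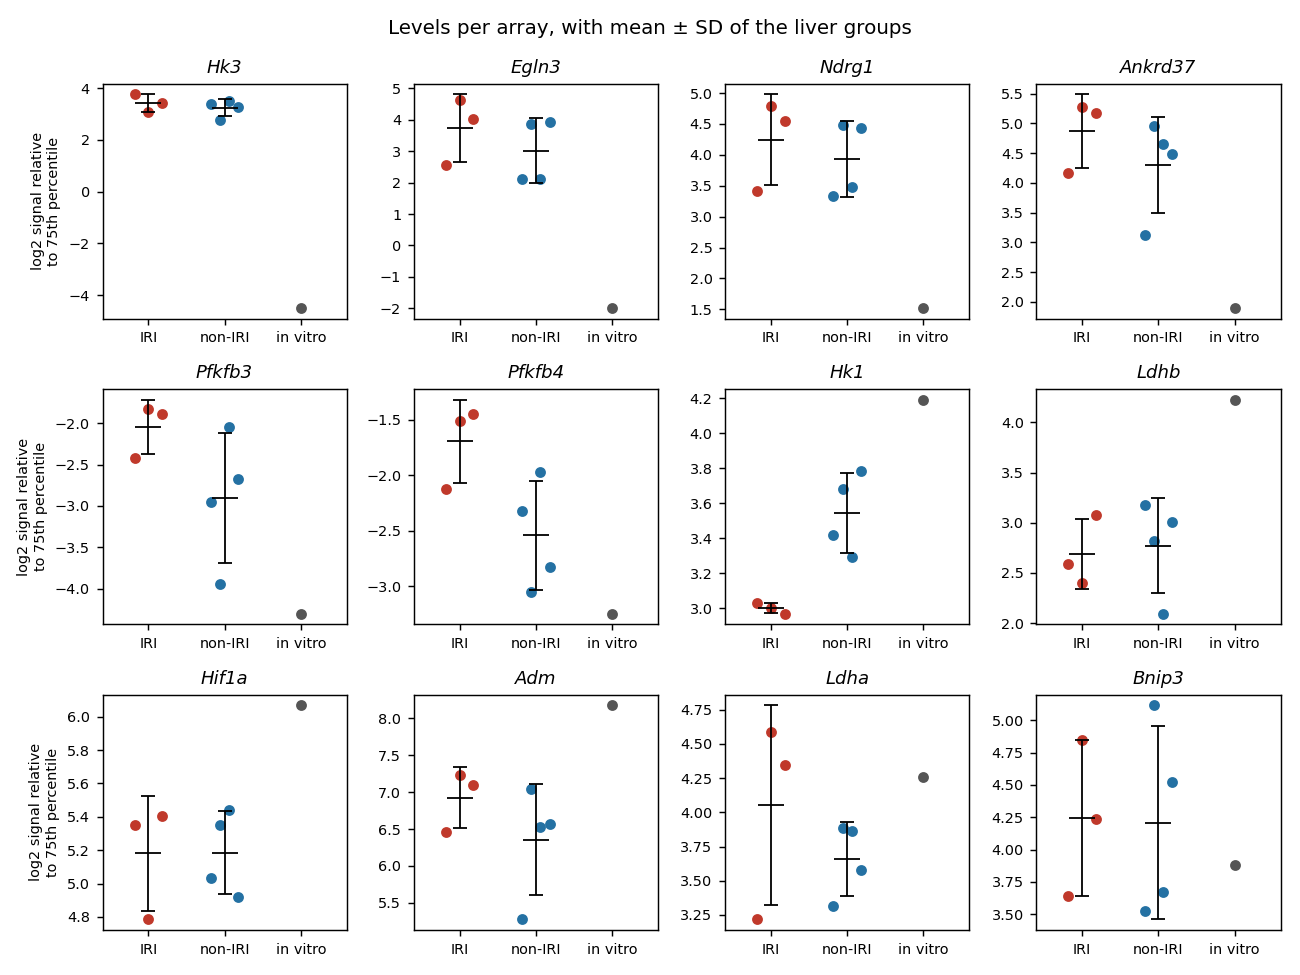
Levels of 12 genes on each array (log2 signal relative to the array's 75th percentile; each panel has its own axis) for IRI, non-IRI and in vitro; the bars are mean ± SD of the liver groups, and in vitro is 1 array. Hk3, Egln3, Ndrg1, Ankrd37 and the Pfkfb genes lie above culture on all 7 liver arrays, Hk1, Ldhb, Hif1a and Adm below it, and Ldha and Bnip3 on both sides.

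The HIF alpha subunits showed no call. Hif1a had 5.35, 4.79 and 5.41 in IRI and 5.03, 5.35, 5.44 and 4.92 in non-IRI, against 6.07 in vitro. Every liver array was below culture, with full overlap between the liver groups. The difference of -0.88 ± 0.31 did not pass (adjusted p 0.0588); it did in 5 of the alternatives, at -0.84 to -0.96 (adjusted p 0.0307 to 0.0476): median scaling, array weights, a trended robust prior, probes well above background on all 8 arrays, and normexp with bright local background set to the array median. Epas1, which encodes HIF-2 alpha, had -1.28, -2.55 and -2.26 in IRI and -2.79, -4.16, -2.38 and -2.15 in non-IRI, against -2.97 in vitro. The non-IRI arrays lay on both sides of culture, and the difference of 0.52 ± 0.72 did not pass (adjusted p 0.599).

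The mitophagy receptors, which tag mitochondria for removal, did not pass either. Bnip3 had 3.64, 4.85 and 4.24 in IRI and 3.53, 5.12, 3.67 and 4.52 in non-IRI, against 3.88 in vitro. Liver arrays lay on both sides of culture in each liver group, for a difference of 0.35 ± 0.62 (adjusted p 0.690). Bnip3l, its paralog, differed by 0.59 ± 0.23 (adjusted p 0.0829), with all liver arrays above culture, and passed with quantile normalization (1.04, adjusted p 0.0118) and with a trended prior (adjusted p 0.0404). P4ha1 and P4ha2, the catalytic subunits of the enzyme that hydroxylates proline in collagen, differed by 0.73 ± 0.51 (adjusted p 0.299) and 0.13 ± 0.30 (adjusted p 0.752).

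Each liver group was also set against the culture array, which both comparisons share. In IRI 6 members rose and 2 fell, against a background of 29.2% of genes called (14.2% rose, 15.1% fell), with a median of 0.32 over the members and -0.28 over all genes (-0.09 and -0.20 with the replicate block). In non-IRI 4 rose and 2 fell, against 34.7% of genes called (16.8% rose, 18% fell), with a median of 0.13 over the members and -0.24 over all genes (-0.01 and -0.16 with the replicate block). Each count of rises includes Hk3, which has only a lower bound. Pfkfb3 differed from culture by 2.26 ± 0.63 in IRI (adjusted p 0.0312) and by 1.40 ± 0.61 in non-IRI (adjusted p 0.111). Pfkfb4 differed by 1.56 ± 0.46 in IRI (adjusted p 0.0378) and by 0.70 ± 0.44 in non-IRI (adjusted p 0.247). Hk1 differed by -1.19 ± 0.26 in IRI (adjusted p 0.0122) and by -0.65 ± 0.25 in non-IRI (adjusted p 0.0781). Adm differed by -1.25 ± 0.62 in IRI (adjusted p 0.165) and by -1.82 ± 0.60 in non-IRI (adjusted p 0.0491). The direct comparison of the liver groups, given next, is the test of these gaps, and none passed it.

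These calls rest on few arrays. The IRI and culture arrays share a scan, and the fit on those 4 arrays alone again gave 6 rises and 2 falls; non-IRI and culture were scanned apart. With the replicate block, Ldhb (adjusted p 0.154), Pfkfb3 (0.0877) and Pfkfb4 (0.105) no longer passed in IRI against culture, nor Ldhb (0.146) in non-IRI against culture, while Adm passed in IRI (-1.99, adjusted p 0.0294). Without IRI 2 or IRI 3 neither Pfkfb gene passed in IRI, and Pfkfb4 did not pass without non-IRI 1 (adjusted p 0.0531) or non-IRI 4 (0.0510) either. Ldhb did not pass without IRI 1 (adjusted p 0.0654), IRI 2 (0.0797) or non-IRI 4 (0.0501). Without IRI 1, Pdk1 (1.44, adjusted p 0.0210) and P4ha1 (1.25, adjusted p 0.0490) passed as well. In non-IRI against culture, Ankrd37 did not pass without non-IRI 3 (adjusted p 0.0520) or non-IRI 4 (0.0571), and Adm did not pass without any 1 of IRI 1, IRI 2, IRI 3, non-IRI 3 or non-IRI 4 (adjusted p 0.0540 to 0.0717). In the same comparison Gapdh (-0.76, adjusted p 0.0442) and Pkm (-0.70, adjusted p 0.0409) passed without IRI 1, and Pfkfb3 passed without non-IRI 2 (1.75, adjusted p 0.0180).

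Between injured and uninjured liver, none of the 31 genes rose or fell in limma's test, where 2.99% of all genes were called (0.357% rose and 2.64% fell). At an unadjusted p under 0.05 there were 3 members, Hk1, Pfkfb4 and Gpi, against 14.9% of all genes. In all, 23 of the 31 were higher in IRI, against 51.6% of all genes, and the median difference was 0.19 over the members and 0.01 over all genes. The arrays of the liver groups did not overlap for 2 genes that were higher in IRI, Gpi and Pgam1 (6.56% of all genes), and for 1 that was lower, Hk1 (9.26% of all genes). On the second kept probe of each of these genes the liver groups overlapped.

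Gpi, which turns glucose 6-phosphate into fructose 6-phosphate, had 6.73, 7.06 and 7.02 in IRI and 6.43, 6.25, 6.63 and 6.60 in non-IRI. Every IRI array lay above every non-IRI array, and culture, at 6.77, lay within the IRI range. The difference of 0.46 ± 0.17 did not pass (adjusted p 0.254). A second Gpi probe gave 0.43 ± 0.22 (adjusted p 0.405), and on it IRI 1, at 5.92, lay below non-IRI 3, at 6.12, and non-IRI 4, at 6.07. Pgam1, phosphoglycerate mutase, had 8.18, 8.34 and 8.24 in IRI and 7.93, 8.12, 8.16 and 8.03 in non-IRI, a narrow separation with a difference of 0.19 ± 0.14 (adjusted p 0.604). On a second Pgam1 probe IRI 1, at 1.90, lay below all non-IRI arrays (2.16 to 2.59). That probe differed by 0.47 ± 0.34 (adjusted p 0.574). Hk1 differed by -0.54 ± 0.17 (adjusted p 0.177).

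The widest positive differences of IRI over non-IRI were those of Pfkfb3 (0.86 ± 0.42, adjusted p 0.386), Pfkfb4 (0.85 ± 0.30, adjusted p 0.238), Epas1 (0.84 ± 0.51, adjusted p 0.508) and Egln3 (0.72 ± 0.65, adjusted p 0.678). None of these 4 passed, and the liver groups overlapped in each. Adm (0.57 ± 0.41), Ankrd37 (0.56 ± 0.47), Aldoa (0.54 ± 0.33) and Ldha (0.39 ± 0.34) were also higher in the IRI mean without passing. Car9 was lower (-0.41 ± 0.45), and Hif1a, Vhl and Eno1 lay within 0.02 of 0 on the probe that stands for each gene. Their second probes differed by 0.08, -0.13 and 0.17. With array weights, which lower the weight of arrays that stand apart, Gpi (0.51, adjusted p 0.0374) and Pfkfb4 (0.88, adjusted p 0.0407) passed, where 11.3% of all genes were called. In the same comparison 13 of the 17 hepatocyte markers rose. All 5 neutrophil and all 5 erythroid markers were higher in IRI with an unadjusted p under 0.05, with medians of 2.15 and 2.88, and none of the 10 passed. Of 6 mesothelial markers all were lower and 1 fell, with a median of -0.87. Each IRI array had all 17 hepatocyte markers well above background, while a non-IRI array had between 9 and 16 of them, so no size is given for that rise; their part in the members' values was not tested.

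The members also differed between arrays of the same group. IRI 1 was the lowest IRI array in 22 of the 31 genes, or 71.0%, against 32.3% of all genes, and IRI 2 was the highest in 22, against 28.4% of all genes. Among the non-IRI arrays, non-IRI 1 was the lowest in 18, or 58.1%, against 16.8% of all genes. The 15 HIF subunits, regulators and targets had a median SD of 0.60 between IRI arrays and 0.49 between non-IRI arrays. The 16 glycolytic enzymes had 0.33 and 0.24 in the same groups, and all genes 0.25 and 0.30. Egln3 had the widest spread of the 31, with an SD of 1.07 in IRI (n = 3) and 1.03 in non-IRI (n = 4).

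HIF targets and glycolytic enzymes were low and high on the same IRI arrays. IRI 1 was lowest in 12 of the 16 glycolytic enzymes and in 10 of the 15 HIF subunits, regulators and targets. IRI 2 was highest in 11 of each. Among the enzymes with that order were Aldoa, Tpi1, Pgk1, Gapdh and Pkm. Egln3, Ndrg1, Bnip3, Ankrd37, Adm, Car9, P4ha1, Pdk1 and Ldha were each lowest on IRI 1 and highest on IRI 2. In non-IRI, Bnip3, Ankrd37, Adm and Ndrg1 were lowest on non-IRI 1 and highest on non-IRI 2. Hk3 and Epas1 ran the other way in IRI, with IRI 1 the highest and IRI 2 the lowest. Pfkm and Hk1 were also highest on IRI 1, but lowest on IRI 3. Ldhb and Hif1a followed none of these orders. IRI 1 also had the lowest 75th percentile of the 8 arrays, 156 intensity units, and IRI 2 the highest, 291. IRI 2 had the highest mean of the 5 erythroid markers, at 2.75, against -0.30 on IRI 1 and -1.28 on IRI 3; the part of either in the members' order was not tested. Leaving out IRI 1 moved the members' median difference between IRI and non-IRI to 0.42, and leaving out IRI 2 moved it to 0.10.

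**Figure D3:**
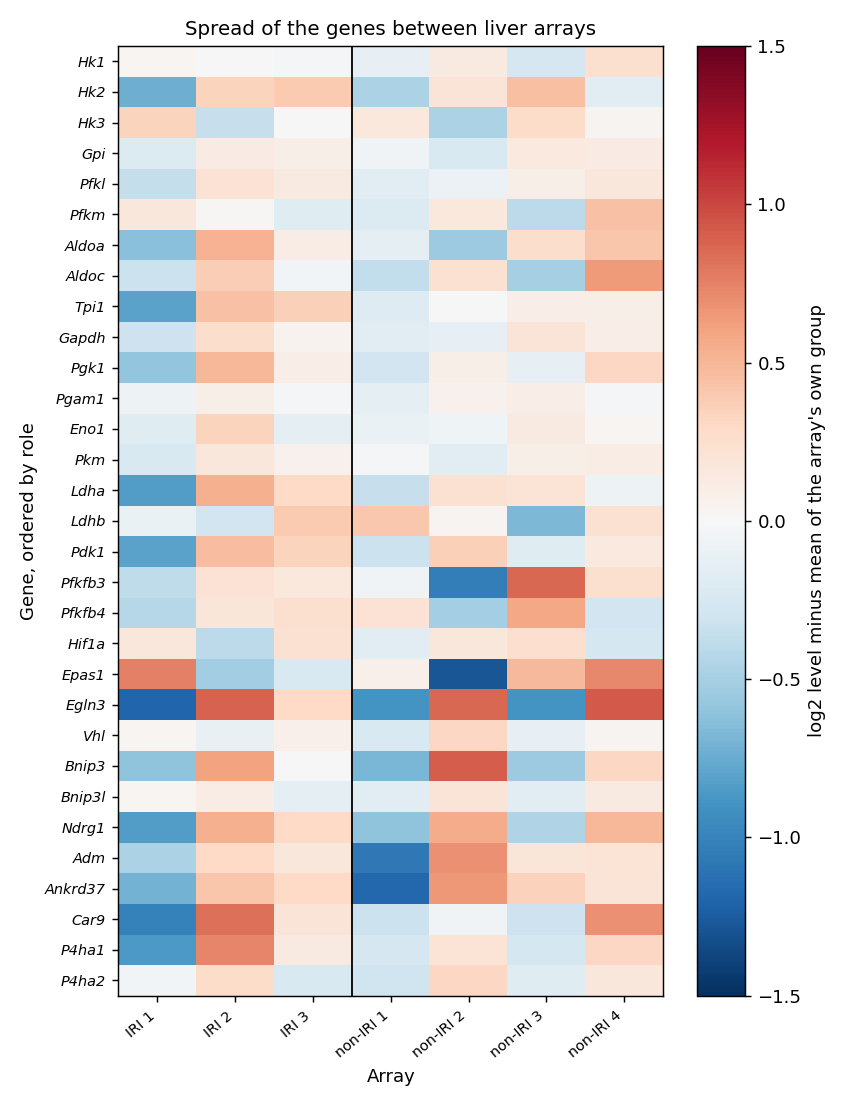
Deviation of each of the 31 genes (rows, by role) from the mean of the array's own group on the 7 liver arrays (columns, IRI left of non-IRI), in log2 units; red is above the group mean and blue below. IRI 1 is blue and IRI 2 red for most genes, with the deepest colours in Epas1, Egln3, Ankrd37, Adm, Pfkfb3 and Car9. Hk3 and Epas1 are reversed in IRI.

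A pair of kept probes existed for 8 of the genes, and the sign of the IRI minus non-IRI difference depended on the probe in 5 of them. For Hk1, the brighter probe differed by -0.54 and the dimmer by 0.38, a gap of -0.92. The dimmer Hk1 probe had -0.32, 0.28 and 0.26 in IRI and -0.44, -0.63, -0.35 and 0.21 in non-IRI, against 1.43 in vitro. On that probe the liver groups overlapped, while on the brighter probe all IRI arrays were lower. An exact two-sided permutation test of the difference between the probes over the 7 liver arrays gave p = 0.0571 for Hk1, the smallest that 3 against 4 arrays allow, and 0.152 adjusted over the 8 pairs. Eno1 and Gapdh reached the same p with gaps of -0.17 and 0.16. Against culture, the members of each pair had the same sign in 7 genes, and only the Gpi probes, at -0.06 and 0.03, did not.

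**Figure D4:**
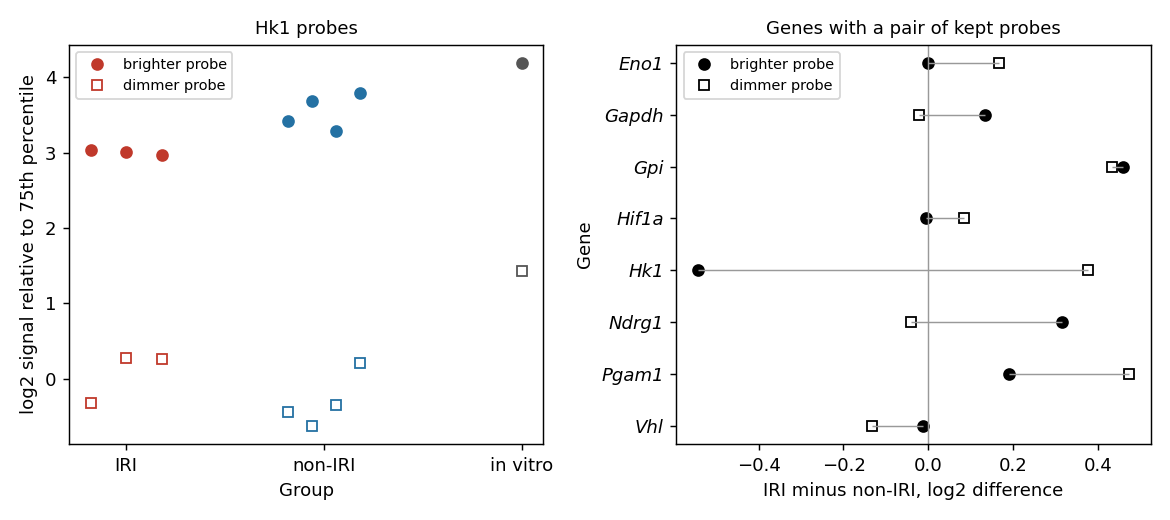
Left, levels of the Hk1 probes on each array (log2 signal relative to the 75th percentile; circles the brighter probe, squares the dimmer) in IRI, non-IRI and in vitro. Right, IRI minus non-IRI log2 differences of the 8 genes with a pair of kept probes: the Hk1 probes lie at -0.54 and 0.38, the Gpi probes at 0.46 and 0.43.

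Further genes of the same pathways were read from lists beyond the 31. Of 24 other HIF pathway and target genes measured, 5 rose on liver against culture and 4 fell, where 16% of all genes rose and 18.1% fell. Their median was 0.20, against -0.25 over all genes. Angptl4, an inhibitor of lipoprotein lipase, was at least 399-fold higher in IRI and at least 251-fold higher in non-IRI, since its probe was not well above background in vitro. Slc16a3, which exports lactate, rose by 1.49 ± 0.23 (adjusted p 0.00252), with 6.70 to 7.09 in IRI and 6.51 to 6.81 in non-IRI against 5.30 in vitro. Edn1, the vasoconstrictor endothelin, fell by 4.45 ± 0.75 (adjusted p 0.00357). Between IRI and non-IRI none of the 24 passed, 18 were higher, and 5 had an unadjusted p under 0.05 (14.9% of all genes); the median was 0.12, against 0.01 over all genes.

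Of 18 other glucose enzymes shared by most cells, none rose and 4 fell on liver against culture, where 18.1% of all genes fell, with a median of -0.40 against -0.25 over all genes. Among those that fell were Dlat of the pyruvate dehydrogenase complex (-1.01 ± 0.20, adjusted p 0.00723), the muscle enolase Eno3 (-1.01 ± 0.24, adjusted p 0.0144) and the mitochondrial pyruvate carrier Mpc1 (-0.73 ± 0.20, adjusted p 0.0254). Of 8 glucose enzymes typical of liver, Pygl, liver glycogen phosphorylase, rose (1.27 ± 0.22, adjusted p 0.00380) and Tkfc, a kinase of fructose breakdown, fell (-1.45 ± 0.32, adjusted p 0.0111). Pygl had 1.31, 1.45 and 1.20 in IRI and 1.97, 1.91, 1.95 and 2.22 in non-IRI, against 0.39 in vitro. Every IRI array lay below every non-IRI array, and the difference between the liver groups of -0.69 ± 0.15 did not pass (adjusted p 0.0612). None of the 18 and none of the 8 passed between IRI and non-IRI, where 2 and 1 had an unadjusted p under 0.05, against 14.9% of all genes.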

How the data were processed

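Expression was measured in 8 samples on single-colour (Cy3) Agilent arrays. Per the file headers, the deposited spot intensity comes from Feature Extraction 11.0.1.1, with background subtraction and spatial detrending inside each array and no scaling between arrays; per the submitters' processing notes the version was 9.1. The deposited value table, in log2 units, matched the scanner signals scaled to each array's 75th percentile and centred on each probe's median, with column medians of 0.18, -0.07 and -0.05 for IRI 1 to 3, 0.09, -0.15, -0.02 and -0.02 for non-IRI 1 to 4, and 0.16 for in vitro; it was used as an alternative.

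Values were log2 of the processed signal minus that percentile of the 43379 non-control spots, without 45 to 117 outlier spots per array. No spot was saturated. RefSeq accessions named 17541 of 41012 probes. The kept probe with the highest mean stood for a gene. The 3 group means of all 8 arrays were modelled in limma (version 3.58.1, functions lmFit and eBayes, under R 4.3.3), with 5 residual and 2.81 prior degrees of freedom, and p-values were adjusted by Benjamini-Hochberg over 21309 genes (21298 against culture). For a group with no array well above background, the fold is a bound against that array's lowest signal well above background. The number of arrays limits the precision. The fit was tested on simulated data. All 35 genes are accounted for, and from other lists at most 3 genes per comparison were named by smallest p, apart from further calls of 5 or fewer, named after their values were seen. The values of 1 gene from those lists are not reported here. The genes and lists were chosen with earlier results of these data known.

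Same-numbered IRI and non-IRI arrays deviated together from their group means across genes, though weakly (r = 0.19, 0.16 and 0.10 for numbers 1 to 3). Differently numbered arrays had r of -0.19 to 0.08. The replicate number was therefore tried as a block in an alternative, and the main fit uses no pairing. The labels do not say that the samples are paired, and the block rests on their replicate numbers and this check. The block fit leaves out non-IRI 4 and places in vitro with number 1, on its label alone. The normexp alternative used the median spot signal, and an alternative that keeps bright local background from entering it, and a fit on the arrays of 1 scan alone, were chosen after seeing the data.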

Additional observations from a re-analysis of the deposited data

How the results depend on the processing

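Between IRI and non-IRI no member passed in any alternative except array weights, where 2 rose and 11.3% of all genes were called. For liver against culture, the counts of members that rose and fell were 2 and 0 with normexp background correction, 6 and 0 with quantile normalization, 4 and 1 with no filter on dim probes, 7 and 8 with array weights, 6 and 6 with a trended robust prior, and 4 and 1 with the replicate block. For IRI against culture they were 2 and 0 with normexp, 7 and 0 with quantile normalization, 4 and 1 with no filter, and 9 and 5 with array weights. For non-IRI against culture they were 1 and 0 with normexp, 4 and 1 with normexp once bright local background was set to the array median, 6 and 0 with quantile normalization, 4 and 0 with no filter, 5 and 6 with array weights, 4 and 7 with the trended prior, and 4 and 1 with the replicate block. Leaving out 1 array at a time gave 4 to 6 that rose and 2 to 3 that fell for liver, 4 to 8 and 1 to 2 for IRI, and 3 to 5 and 1 to 3 for non-IRI, each against culture, and 0 and 0 between IRI and non-IRI. Hk3, with only a lower bound, is among the rises in each of these counts against culture. With the replicate block the members' medians against culture were -0.04, -0.09 and -0.01 for liver, IRI and non-IRI; the block changed no other call than those given above. No called value changed sign in any alternative run. Over all genes, IRI minus non-IRI gave 76 rises and 562 falls, against 0 and 0 with normexp (median of all genes -0.16), 778 and 1637 with array weights and 19 and 212 with the replicate block. Of all genes, liver against culture called 3.44% with normexp, 20.8% once bright local background was set to the array median, 30.7% with quantile normalization, 15.3% with no filter, 49.8% with array weights, 36.3% with the trended prior and 24% with the replicate block. IRI against culture called 2.98% with normexp, 26.2% with quantile normalization, 12.3% with no filter and 49.4% with array weights. For non-IRI these were 2.97%, 31.6%, 16% and 47.7%. There, bright local background set to the array median gave 21.1%, the trended prior 36.6% and the replicate block 24.3%. Leaving out 1 array called 27.1% to 37.4% for liver, 19.3% to 32.7% for IRI and 28.2% to 36.6% for non-IRI. The causes were not tested. The slide as a block could not be fitted.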
